A study of Mus musculus with 14 samples.

Results

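Mouse embryonic stem (ES) cells were profiled on 60-base oligonucleotide arrays, and 100 array probes were examined whose signal was lower after retinoic acid and higher after the kinase inhibitor LY294002 than in untreated cells. The 100 probes were drawn from 42006 probes with readings. Per array, the scanner's log ratio of sample over reference was put on the log2 scale and centred on its median, and group means were taken over replicate arrays. The 27124 probes above background on all 4 untreated and LY294002 arrays were then ranked by the smaller of 2 differences, untreated minus retinoic acid and LY294002 minus untreated, and the top 100 were kept. These readings chose the probes, so the retinoic acid, LY294002 and untreated values are given as a description, without a test.

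The series asked how undifferentiated colonies arise among ES cells that are differentiating under retinoic acid. It held 14 arrays in 7 groups of 2, all of strain 129 ES cells of MC1 origin. Untreated control cells (MC1-ZE3) were collected on day 3. In the retinoic acid group, MC1-ZE3 cells were kept for 24 h in standard medium with the cytokine LIF and then for 48 h with 50 nM all-trans retinoic acid. In the LY294002 group the same schedule was used with the inhibitor, given in the labels as 10 nM, a unit far below the micromolar range in which this compound is commonly used. A separate set of untreated MC1-ZE3 cells, here called standard cells, was also collected on day 3. Day 4 colonies were from MC1-ZE16 cells and day 7 colonies from MC1 cells, both under 50 nM retinoic acid. The day 7 titles also read "Intact Lif+", which names LIF beside retinoic acid. The study describes both sets as pluripotent colonies picked by hand. Passage 10 cells were MC1-ZE3 cells that had 7 days of retinoic acid and then 10 passages without it, collected on day 3. The extraction notes name pooled picked colonies for 6 of the 7 groups, untreated cells included, and a single well for the day 7 colonies, so what was lysed is not settled by the labels. Separate cultures behind the 2 arrays of a group are not stated in the labels, so every p-value measures the spread between these arrays, which may be technical. In picked or mixed cultures, fewer cells carrying an RNA and less of that RNA per cell cannot be told apart. Control and retinoic acid arrays shared a slide, and LY294002 arrays were alone on another, all scanned on the same day. Slide and LY294002 treatment therefore cannot be told apart.

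Retinoic acid binds nuclear receptors that act as transcription factors on DNA, and it is a standard agent for driving ES cells out of self-renewal. LIF signals through a receptor complex that activates STAT3 and helps keep mouse ES cells undifferentiated. LY294002 blocks phosphoinositide 3-kinase, an enzyme upstream of AKT and mTOR signalling, and it also acts on other kinases. The deposited tables name these probes by identifier and sequence only and place none of them on the genome. The probes are therefore described by identifier and sequence, and the ES cell label could not be set against marker genes: none of 167 gene symbols listed for pluripotency, lineage, retinoic acid response and signalling was a probe name.

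The first 4 sequences are shown because they form the only pairs of the 100 probes that overlap by 20 or more bases at their ends. Capitals mark the shared bases.
Z00073014-1: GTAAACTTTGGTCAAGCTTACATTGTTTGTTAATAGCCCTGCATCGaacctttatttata
Z00073766-1: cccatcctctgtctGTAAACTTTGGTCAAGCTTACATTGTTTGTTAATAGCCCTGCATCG
Z00030768-1: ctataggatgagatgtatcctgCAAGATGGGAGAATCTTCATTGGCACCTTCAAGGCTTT
Z00076704-1: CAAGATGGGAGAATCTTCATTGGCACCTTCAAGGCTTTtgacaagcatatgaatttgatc
Z00073014-1 and Z00073766-1 shared 46 bases, and Z00030768-1 and Z00076704-1 shared 38 bases, so each pair reads the same stretch of RNA and is not independent evidence.

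Another 6 sequences are shown because they carry large falls or stand at the top of the ranking. No base is in capitals where a probe overlapped no other of the 100.
Z00070436-1: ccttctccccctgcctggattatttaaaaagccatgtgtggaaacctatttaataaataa
Z00075537-1: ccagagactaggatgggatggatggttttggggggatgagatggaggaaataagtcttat
Z00068032-1: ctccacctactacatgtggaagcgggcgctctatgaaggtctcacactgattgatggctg
Z00004988-1: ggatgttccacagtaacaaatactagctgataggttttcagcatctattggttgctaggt
Z00003942-1: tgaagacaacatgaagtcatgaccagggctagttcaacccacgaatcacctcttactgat
Z00059689-1: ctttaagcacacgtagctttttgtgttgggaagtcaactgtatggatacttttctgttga
Z00070436-1 and Z00075537-1 ranked 8 and 5 and shared no end of 20 bases.

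The last 6 are shown because they left the common pattern, or because part of their sequence was found elsewhere.
Z00023872-1: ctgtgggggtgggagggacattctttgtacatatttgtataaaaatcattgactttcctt
Z00004978-1: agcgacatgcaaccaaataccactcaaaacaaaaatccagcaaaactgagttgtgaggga
Z00034296-1: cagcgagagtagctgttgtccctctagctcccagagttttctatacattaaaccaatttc
Z00054591-1: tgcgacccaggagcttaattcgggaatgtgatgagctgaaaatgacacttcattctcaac
Z00030878-1: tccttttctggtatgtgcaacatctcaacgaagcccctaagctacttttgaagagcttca
Z00023694-1: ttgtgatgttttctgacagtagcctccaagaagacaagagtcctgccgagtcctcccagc
All 60 bases of Z00023694-1 were found in RefSeq's promoter window of 4930538E20Rik, a gene on chromosome 11 (GRCm38.p6), on the minus strand of that window as written along the gene. This match to 1 strand of a window around a gene start does not name the RNA that the probe reads. Among all 42006 probes, 434 matched a promoter window over at least 40 bases, and Z00023694-1 was the only one of the 100. None of the 100 matched a microRNA hairpin.

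The median GC content of the 100 probes was 41.7%, with quartiles of 38.3% and 47.1%. It was 43.3% over all 42006 probes, and 45.0% over the 31053 probes tested, with quartiles of 38.3% and 51.7%. The polyadenylation signal letters AATAAA were present as printed in 5 of the 100 probes and in 7.38% of the tested probes. The variant ATTAAA was present in 5 of the 100 and in 3.18% of the tested probes. On either strand, AATAAA was present in 10 of the 100 and 10.3% of tested probes, and ATTAAA in 6 and 5.3%. The AU-rich letters ATTTA were found as printed in 7 of the 100 and 6.94% of tested probes, and on either strand in 10 and 13.9%. Letters found in a 60-base probe describe that window alone.

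The values below are log2 ratios of sample over reference from background-corrected, loess-normalised intensities, where 0 means as bright as the reference. The reference, the same on every array, was RNA of 11 cell lines mixed 2 to 1 with RNA of 129 ES cells, labelled with Cy5. Samples were labelled with Cy3 on all arrays and no dye swap was made, so a dye bias of a probe is common to all groups. Replicate arrays correlated at 0.972 to 0.993, and 56.1% to 75.1% of probes were well above background on an array. The 100 probes were dim: in control cells their median Cy3 signal was 3.20 times the local background, against 7.57 times over the tested probes. In day 4 colonies it was 1.65 against 3.89 times.

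Across the 7 groups, the 100 probes were highest in LY294002-treated cells and lowest in cells and day 4 colonies under retinoic acid. Their median log2 ratio was 0.85 after LY294002, 0.59 in passage 10 cells, 0.41 in standard cells and 0.24 in control cells. It was -0.05 in day 7 colonies and -0.19 both after 48 h of retinoic acid and in day 4 colonies. Probes more than 2-fold above the reference numbered 42 after LY294002, 37 at passage 10, 26 in standard cells and 11 in control cells. There were 2 such probes in day 4 colonies, 1 in day 7 colonies and 0 after 48 h of retinoic acid. The share of all tested probes past that cut is not given here. Over all tested probes, the group medians of the log2 ratio ran from -0.014 in standard cells to 0.003 in control cells. The rule required a signal above background in control and LY294002 cells, and 74 of the 100 also had one on both retinoic acid arrays. That number was 79 in standard cells, 84 at passage 10, 53 in day 4 colonies and 74 in day 7 colonies.

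The difference that chose the probes was larger on the scanner's scale than on the normalised scale. On the scanner's scale the fall with retinoic acid ranged from 0.75 to 3.73, with a median of 1.09, and the rise with LY294002 from 0.76 to 3.10, with a median of 1.14. On the normalised scale of the same arrays, every one of the 100 was lower after retinoic acid, from -2.76 to -0.01 with a median of -0.52. Every one was higher after LY294002, from 0.05 to 2.69 with a median of 0.64. The smallest of these changes were close to none. The arrays did not overlap for 94 of the 100 probes between retinoic acid and control, where 34.8% of all tested probes were lower without overlap. They did not overlap for 97 of the 100 between LY294002 and control, where 38.2% of tested probes were higher without overlap. Between retinoic acid and LY294002 all 100 were lower without overlap, against 36.2% of tested probes. These arrays chose the probes, so high counts without overlap follow from the choice and are no separate evidence. When each array was only centred on its median, 9 of the 100 were higher after retinoic acid, and with the Cy3 signal alone 1 was. Applying the same rule on the loess-normalised, median-centred and Cy3 scales returned 47, 35 and 41 of the 100. At the end of the ranking, Z00046387-1 (rank 99) scored 0.753 and Z00034296-1 (rank 100) 0.751, while Z00034923-1 and Z00067177-1 (ranks 101 and 102) both scored 0.750. No gap separated the last chosen probes from the next ones.

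Z00070436-1 and Z00075537-1 had some of the widest swings. Z00070436-1 read -0.22 and -0.26 in control cells, -1.76 and -1.74 after retinoic acid and 2.27 and 2.37 after LY294002. It read 0.45 and 0.42 in standard cells, 0.82 and 0.80 at passage 10, -1.88 and -1.70 in day 4 colonies and -2.12 and -1.86 in day 7 colonies. The control arrays of Z00075537-1 read 0.16 and 0.16, the retinoic acid arrays -1.44 and -1.45 and the LY294002 arrays 2.63 and 2.78. Its standard cells read 0.61 and 0.58 and its passage 10 cells 1.01 and 1.0, against -1.50 and -1.31 in day 4 and -1.71 and -1.47 in day 7 colonies. In both probes all retinoic acid and colony arrays lay well below every control array, and all LY294002 arrays lay above every other array. The profiles ran side by side, with Z00075537-1 the higher on average, by a median of 0.37 and at most 0.42 over the 14 arrays.

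Z00068032-1, at rank 2, had a smaller swing. For Z00068032-1 the log2 ratios were -0.11 and -0.04 in control, -0.81 and -0.80 in retinoic acid and 1.24 and 1.03 in LY294002 cells. They were 0.42 and 0.33 in standard cells, 1.17 and 1.04 at passage 10, -1.11 and -1.11 in day 4 colonies and -0.98 and -1.09 in day 7 colonies. Its standard, passage 10 and LY294002 arrays all lay above its control arrays, and its retinoic acid and colony arrays lay below them. The highest-ranked probe, Z00033229-1, differed from control by only -0.28 after retinoic acid on this scale and by 0.98 after LY294002. Log2 ratios of Z00033229-1 were 0.13 and 0.16 (control), -0.12 and -0.16 (retinoic acid) and 1.15 and 1.09 (LY294002). Standard cells gave 0.22 and 0.36, passage 10 cells 0.47 and 0.77, day 4 colonies -0.17 and -0.19 and day 7 colonies -0.02 and 0.08. Z00033229-1 was above background on only 1 of the 2 standard arrays, and on no retinoic acid or colony array.

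Z00039781-1, Z00058259-1, Z00024471-1 and Z00023785-1 completed the 8 highest ranks. Z00039781-1 read 0.22 and 0.24 in control cells, -0.39 and -0.32 after retinoic acid and 1.15 and 0.70 after LY294002. It read 0.97 and 0.84 in standard cells, 1.27 and 1.17 at passage 10, -0.24 and -0.33 in day 4 colonies and -0.39 and -0.16 in day 7 colonies. The control arrays of Z00058259-1 read 0.32 and 0.48, the retinoic acid arrays -0.48 and -0.52 and the LY294002 arrays 2.12 and 1.91. Its standard cells read 0.61 and 0.54 and its passage 10 cells 1.02 and 0.80, against -0.03 and -0.17 in day 4 and -0.22 and -0.01 in day 7 colonies. For Z00024471-1 the log2 ratios were 0.73 and 0.61 in control, -0.09 and -0.01 in retinoic acid and 2.03 and 1.53 in LY294002 cells. They were 0.97 and 0.85 in standard cells, 1.25 and 1.18 at passage 10, -0.31 and -0.22 in day 4 colonies and 0.18 and 0.23 in day 7 colonies. In all 3, no colony array reached any standard array. Log2 ratios of Z00023785-1 were 0.26 and 0.05 (control), -0.29 and -0.22 (retinoic acid) and 0.42 and 0.38 (LY294002). Standard cells gave 0.15 and 0.26, passage 10 cells 0.43 and 0.56, day 4 colonies -0.06 and -0.07 and day 7 colonies -0.35 and -0.18. The groups of Z00023785-1 lay close together, with the passage 10 and LY294002 arrays highest. Neither Z00039781-1 nor Z00023785-1 was above background on any retinoic acid or colony array.

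Z00059689-1 had the largest normalised rise with LY294002, 2.69. Z00059689-1 read -2.14 and -2.04 in control cells, -2.84 and -2.67 after retinoic acid and 0.74 and 0.47 after LY294002. It read -0.55 and -0.45 in standard cells, -1.11 and -0.93 at passage 10, -2.43 and -2.13 in day 4 colonies and -3.29 and -3.18 in day 7 colonies. It was below the reference everywhere except after LY294002. Z00004978-1 had the largest normalised fall with retinoic acid, -2.76. The control arrays of Z00004978-1 read 1.88 and 1.83, the retinoic acid arrays -0.86 and -0.95 and the LY294002 arrays 2.66 and 2.63. Its standard cells read 1.31 and 1.19 and its passage 10 cells 2.05 and 2.01, against 1.64 and 1.59 in day 4 and 1.26 and 1.25 in day 7 colonies. It was above the reference on every array except those of cells under retinoic acid for 48 h.

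The 2 untreated sets of MC1-ZE3 cells, control and standard, did not give the same levels. Of the 100 probes, 69 were lower and 31 higher in control than in standard cells, where 52.6% of all tested probes were higher. The median difference was -0.19. LY294002-treated cells exceeded standard cells in 84 of the 100, with a median of 0.41, where 51.5% of tested probes were higher. Cells after 48 h of retinoic acid were below standard cells in 97, with a median of -0.77, where 54.4% of tested probes were higher. These 3 comparisons use the arrays that chose the probes and are given as values only. Standard arrays were on other slides and scan days than control, retinoic acid and LY294002 arrays. Slide and scan day therefore cannot be told apart from these differences. The 4 comparisons that follow set groups against each other that the rule did not use. They were tested with limma over 31053 probes, and a probe passed at a Benjamini-Hochberg adjusted p below 0.05. The spread was estimated over all 14 arrays, and a probe was tested if above background on both arrays of any group, so the control, retinoic acid and LY294002 arrays entered both. Fitting the compared groups alone gave 76 falls and 3 rises in day 4 colonies, 69 and 2 in day 7 colonies, and 1 and 14 at passage 10. The share of all tested probes called in those fits is not given here.

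Colonies that emerged under retinoic acid were compared with standard cells. The question was whether probes low after 48 h of retinoic acid were also low in the colonies. The fall at 48 h was taken against control cells, and 69 of the 100 were lower in control than in standard cells. A fall against standard cells is therefore not always a level below control cells. In day 4 colonies 76 of the 100 fell and 3 rose, where 23.2% of all tested probes fell and 25.2% rose. The median change was -0.60, with quartiles of -1.18 and -0.21, against 0.01 over all tested probes. The 21 probes that did not pass ranged from -0.23 to 0.15. Falls were spread over the ranking, with 21, 20, 20 and 15 in ranks 1 to 25, 26 to 50, 51 to 75 and 76 to 100. Of the 53 probes above background on all 4 arrays compared, 43 fell, where 28.7% of all probes that bright did. Another 13 were above background on none of the 4, and 5 of these are counted among the falls. The median was -1.60 with the scanner's own log ratio, and with median centring 54 fell and 0 rose, where 12.9% of tested probes fell and 11.1% rose. All day 4 arrays were on a slide of their own and from MC1-ZE16 cells, so slide, line and treatment cannot be told apart. Against the standard array of the same scan day the median change was -0.61, with 89 of 99 probes lower, and against the other standard array it was -0.66, with 87 lower.

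The largest fall in day 4 colonies was that of Z00004988-1. For Z00004988-1 the log2 ratios were 1.07 and 0.95 in control, 0.07 and 0.22 in retinoic acid and 2.18 and 2.01 in LY294002 cells. They were 2.19 and 2.08 in standard cells, 2.59 and 2.67 at passage 10, -1.76 and -1.77 in day 4 colonies and -1.31 and -1.26 in day 7 colonies. Standard and passage 10 arrays lay far above every colony array, without overlap. Day 4 colonies differed from standard cells by -3.90 (SE 0.08, adjusted p = 1.16e-11, limma), although only 1 of the 2 day 4 arrays was above background. Z00003942-1, above the reference in the 5 groups other than colonies, also fell steeply. Log2 ratios of Z00003942-1 were 1.51 and 1.43 (control), 0.76 and 0.69 (retinoic acid) and 2.15 and 2.32 (LY294002). Standard cells gave 1.66 and 1.67, passage 10 cells 1.45 and 1.57, day 4 colonies -0.88 and -1.15 and day 7 colonies -1.06 and -0.92. Its change was -2.68 (SE 0.09, adjusted p = 3.00e-10, limma).

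Z00010202-1 fell by 3.22 on the log2 scale at day 4 (SE 0.68, adjusted p = 0.00157, limma), the next largest fall after Z00004988-1, but its replicates disagreed at day 7. Z00010202-1 read -3.82 and -3.75 in control cells, -5.33 and -5.09 after retinoic acid and -2.71 and -2.60 after LY294002. It read -3.18 and -3.13 in standard cells, -3.23 and -3.06 at passage 10, -6.41 and -6.34 in day 4 colonies and -3.91 and -0.56 in day 7 colonies. The day 7 arrays were far apart, replicate 2 lying above every array of any group, and day 7 colonies did not pass against standard cells (0.92, adjusted p = 0.28, limma). The standard error of this probe covers the pooled spread, to which the day 7 pair contributes.

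Among the 8 highest-ranked probes all 8 fell in day 4 colonies, from -0.27 for Z00023785-1 to -2.22 for Z00070436-1. Of the 8, 5 were not well above background on either day 4 array, so their colony level is only bounded. For these the fall in the Cy3 signal is given as a lower bound. It is the mean standard signal over the higher of the probe's own signal and the lowest signal well above background. The intensities were normalised within and between arrays, so the bound holds for Cy3 and not for the log2 ratio. Z00039781-1 was at least 2.14-fold lower and Z00024471-1 at least 2.02-fold. Z00033229-1 was at least 1.11-fold lower and Z00023785-1 at least 1.09-fold, each with only 1 of the 2 standard arrays above background. For Z00068032-1 the Cy3 bound was 3.10-fold, more than the 2.79-fold fall of its log2 ratio (-1.48), so the 2 measures differed. Z00070436-1 (-2.22, adjusted p = 6.70e-10) and Z00075537-1 (-2.0, adjusted p = 1.68e-09) had the largest falls of the 8, by limma.

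Only 3 of the probes rose in day 4 colonies, all low after 48 h of retinoic acid in the arrays that chose them. The control arrays of Z00023872-1 read 0.51 and 0.60, the retinoic acid arrays -0.55 and -0.57 and the LY294002 arrays 1.96 and 1.89. Its standard cells read 1.70 and 1.49 and its passage 10 cells 2.06 and 2.13, against 1.95 and 2.0 in day 4 and 0.58 and 0.88 in day 7 colonies. For Z00023872-1 the standard and day 4 arrays were separate, and the change was 0.39 (SE 0.10, adjusted p = 0.00459, limma). Z00004978-1, whose values are given above, rose by 0.37 (SE 0.06, adjusted p = 3.70e-04, limma). For Z00062015-1 the log2 ratios were -0.35 and -0.33 in control, -0.74 and -0.58 in retinoic acid and 0.55 and 0.43 in LY294002 cells. They were 0.48 and 0.52 in standard cells, 0.51 and 0.55 at passage 10, 0.70 and 0.77 in day 4 colonies and -0.05 and -0.07 in day 7 colonies. Z00062015-1 had the smallest of the 3 rises, 0.23 (SE 0.07, adjusted p = 0.0141, limma). None of the 3 passed as a rise with median centring. The call of Z00023872-1 was also lost without standard replicate 2, and that of Z00062015-1 without standard replicate 1 or day 4 replicate 2.

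In day 7 colonies 72 of the 100 fell and 4 rose against standard cells, where 25.1% of tested probes fell and 28.4% rose. The median change was -0.70, with quartiles of -1.07 and -0.17, against 0.02 over all tested probes. With median centring 57 fell and 3 rose, where 8.62% of tested probes fell and 23.0% rose, and with the scanner's own log ratio 77 fell, 2 rose and the median was -1.34, where 26.4% and 27.4% of tested probes did. Of the 70 probes above background on all 4 arrays compared, 58 fell, where 30% of all probes that bright did. Of 10 above background on none of the 4, 2 are counted among the falls. Falls numbered 21, 20, 18 and 13 in successive steps of 25 ranks. Both colony comparisons use the same standard arrays, so their counts are not independent of each other. Day 7 arrays were alone on their slide and scan day and came from MC1 cells, so these cannot be told apart from the treatment.

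Z00004988-1, Z00059689-1 and Z00003942-1 had the largest falls at day 7. Z00004988-1 changed by -3.42 (SE 0.08, adjusted p = 6.64e-12, limma). Z00059689-1 changed by -2.73 (SE 0.12, adjusted p = 9.43e-10, limma), and its day 7 arrays lay below all others. Z00003942-1 changed by -2.66 (SE 0.09, adjusted p = 1.76e-10, limma). Next came Z00070436-1 at -2.42 and Z00075537-1 at -2.18, which ran side by side here too.

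The 4 rises at day 7 were small, and with the Cy3 signal alone 3 of the 4 lost their call. Log2 ratios of Z00034296-1 were -0.95 and -0.95 (control), -1.65 and -1.59 (retinoic acid) and 0.42 and 0.51 (LY294002). Standard cells gave -0.49 and -0.56, passage 10 cells -0.36 and -0.43, day 4 colonies -1.50 and -1.51 and day 7 colonies -0.06 and -0.14. Z00034296-1, the last probe of the ranking, rose by 0.42 at day 7 (SE 0.06, adjusted p = 9.62e-05, limma) and fell at day 4 (-0.98, adjusted p = 6.09e-08). Z00028650-1 read 0.61 and 0.66 in control cells, 0.07 and 0.17 after retinoic acid and 1.03 and 0.76 after LY294002. It read 0.07 and 0.02 in standard cells, 0.12 and 0.16 at passage 10, 0.03 and -0.01 in day 4 colonies and 0.39 and 0.38 in day 7 colonies. Z00028650-1 rose by 0.33 (SE 0.08, adjusted p = 0.00387, limma), but with the Cy3 signal alone its change was -0.34 and did not pass (adjusted p = 0.23). It was above background on only 1 of the 2 standard arrays. Their Cy3 signals were 125.3 and 53.9, against 80.2 and 82.7 at day 7. The control arrays of Z00054591-1 read -0.41 and -0.54, the retinoic acid arrays -0.93 and -0.76 and the LY294002 arrays 0.79 and 0.59. Its standard cells read 0.04 and 0.11 and its passage 10 cells 1.30 and 1.28, against -1.16 and -0.97 in day 4 and 0.47 and 0.27 in day 7 colonies. Z00054591-1 rose by 0.30 (SE 0.10, adjusted p = 0.0213, limma), a call lost with the scanner's log ratio (0.17, adjusted p = 0.416) and without standard replicate 1 or day 7 replicate 1. Z00012783-1 rose by 0.20 (adjusted p = 0.0348, limma), the smallest rise, and lost the call with median centring, the scanner's log ratio, Cy3 alone and any 1 array left out. For Z00012783-1 the log2 ratios were -0.10 and -0.10 in control, -0.33 and -0.35 in retinoic acid and 0.15 and 0.10 in LY294002 cells. They were 0.15 and 0.09 in standard cells, 0.45 and 0.23 at passage 10, -0.09 and -0.07 in day 4 colonies and 0.30 and 0.33 in day 7 colonies. All of its arrays lay close to the reference.

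The overlapping pairs moved as 1 profile. Log2 ratios of Z00073014-1 were 1.19 and 1.14 (control), 0.25 and 0.42 (retinoic acid) and 2.32 and 2.27 (LY294002). Standard cells gave 1.18 and 1.5, passage 10 cells 1.37 and 1.28, day 4 colonies 0.37 and 0.30 and day 7 colonies 0.18 and 0.14. Z00030768-1 read 1.23 and 1.25 in control cells, 0.37 and 0.48 after retinoic acid and 2.58 and 2.56 after LY294002. It read 1.23 and 1.59 in standard cells, 1.46 and 1.40 at passage 10, 0.29 and 0.35 in day 4 colonies and 0.20 and 0.24 in day 7 colonies. The highest readings of both were after LY294002 and the lowest in colonies and after 48 h of retinoic acid. Within a pair, the largest difference on any of the 14 arrays was 0.22 for Z00073014-1 and Z00073766-1 and 0.11 for Z00030768-1 and Z00076704-1. In day 4 colonies the changes were -1.0, -1.12, -1.09 and -1.14 in the order of the printed sequences. In day 7 colonies they were -1.18, -1.27, -1.20 and -1.19. None of the 4 passed at passage 10, where their changes lay between -0.06 and 0.01.

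Z00030878-1 overlapped no other of the 100 at its ends but shared 46 bases with Z00059593-1, which ranked 125 and was not chosen. The control arrays of Z00030878-1 read 0.00 and 0.01, the retinoic acid arrays -0.13 and -0.24 and the LY294002 arrays 0.31 and 0.18. Its standard cells read 1.44 and 1.24 and its passage 10 cells 1.61 and 1.36, against -0.04 and 0.09 in day 4 and 0.02 and -0.15 in day 7 colonies. It was near the reference in control and retinoic acid cells and well above it only in standard and passage 10 cells. Neither of its retinoic acid arrays was well above background. Its log2 change was -1.32 in day 4 colonies and -1.40 in day 7 colonies, where none of its arrays was well above background. Z00059593-1 gave changes of -1.57 and -1.67 in the same comparisons. It differed from control by -0.07 after retinoic acid and 0.32 after LY294002. Z00033273-1 and Z00077431-1 shared 27 and 26 bases with Z00030878-1. Their colony changes were -1.19 and -1.20, and -0.68 and -0.75. They differed from control by 0.01 and -0.05 after retinoic acid, and by 0.25 and -0.001 after LY294002. For Z00023694-1 the log2 ratios were -0.23 and -0.28 in control, -1.18 and -1.30 in retinoic acid and 1.58 and 1.61 in LY294002 cells. They were -0.23 and -0.40 in standard cells, 0.08 and 0.20 at passage 10, -1.57 and -1.35 in day 4 colonies and -1.14 and -1.63 in day 7 colonies. Z00023694-1, with the promoter-window match, thus lay lowest in colonies and under retinoic acid, and it changed by -1.14 at day 4 (adjusted p = 1.02e-05, limma) and -1.07 at day 7.

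Passage 10 cells, which had once been under retinoic acid and were then grown without it, were compared with standard cells of the same line. Of the 100 probes 19 rose and 1 fell, where 1.66% of tested probes rose and 1.76% fell. The median change was 0.12, with quartiles of 0.01 and 0.30, and 77 of the 100 were positive. Of the 19 rises, 10 were in ranks 1 to 25, with 2, 4 and 3 in the following steps of 25. Each slide of these groups held 1 array of both, and within them 74 and 73 of the 100 probes were higher at passage 10, against 54.1% and 50.0% of tested probes. The number of rises fell to 8 without standard replicate 2 or either passage 10 array, to 11 with the scanner's log ratio, where 1.28% of tested probes rose, and to 2 with median centring, where 0.058% of all tested probes rose.

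Z00054591-1 had the largest rise at passage 10, 1.21 (SE 0.10, adjusted p = 3.13e-05, limma). Both of its passage 10 arrays were above all of its other arrays. Z00004978-1 rose by 0.78 (SE 0.06, adjusted p = 3.29e-05, limma) and Z00068032-1 by 0.73 (SE 0.08, adjusted p = 4.21e-04, limma). Among the other highest-ranked probes, Z00075537-1 (0.41, adjusted p = 0.0252) and Z00070436-1 (0.37, adjusted p = 0.0347) passed by limma, though each lost the call when any 1 array was left out. Z00004988-1 also rose, by 0.49 (adjusted p = 0.00569, limma). The single fall was that of Z00059689-1 (-0.52, SE 0.12, adjusted p = 0.031, limma), also lost when any 1 array was left out. The 80 probes that did not pass ranged from -0.33 to 0.46.

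Day 7 colonies were set directly against day 4 colonies. Of the 100 probes 27 were higher and 18 lower, where 27.4% of tested probes were higher and 25.4% lower. The median difference was 0.02. How the counts stood to the array depended on the scale. With median centring 21 were higher and 10 lower, where 25% and 8.12% of tested probes were. With the scanner's log ratio 37 were higher and 22 lower, against 27.4% and 25.3%. With Cy3 alone 23 were higher and 18 lower, against 25.1% and 26.1%. With the authors' table, which holds 58 of the 100, 25 were higher and 9 lower, against 30% and 27.1%.

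Single probes did differ between the colonies. Z00010202-1 was higher at day 7 by 4.14 (SE 0.68, adjusted p = 2.01e-04, limma), a difference of 2.47 without day 7 replicate 2 and 5.82 without replicate 1. Z00054591-1 was higher by 1.44 and Z00034296-1 by 1.41 (adjusted p = 8.58e-08 and 2.63e-09, limma), and the arrays of the colony groups did not overlap for either. Z00023872-1 was lower at day 7, by -1.25 (SE 0.10, adjusted p = 2.55e-07, limma). Z00059689-1 (-0.96) and Z00040368-1 (-0.87) had the next largest differences in that direction. Log2 ratios of Z00040368-1 were -0.01 and 0.20 (control), -0.78 and -0.78 (retinoic acid) and 1.15 and 1.11 (LY294002). Standard cells gave 1.58 and 1.53, passage 10 cells 1.42 and 1.41, day 4 colonies 0.98 and 0.99 and day 7 colonies 0.02 and 0.22. Z00040368-1 remained well above the reference in day 4 colonies and was near it in day 7 colonies.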

How the data were processed

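RNA of 7 groups of 2 samples was hybridised on 2-colour Agilent arrays of 60-base probes against a common reference. Per the file headers, the deposited spot intensities came from Agilent Feature Extraction 9.5.1.1. The log10 ratio of red over green in those deposited scanner files, turned to sample over reference, was used for choosing the probes and as an alternative. The authors' deposited value table, also on a log10 scale, holds 25030 probes. Set against the scanner values, its direction was sample over reference, while a constant added per probe has an origin not given in the sources used here.

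For the tests, mean and background intensities were corrected with normexp (offset 50) and normalised by loess within arrays, with control spots given no weight and outlier spots removed, in limma 3.58.1 under R 4.3.3. This left log2 ratios, computed here from the deposited intensities. The 31053 probes tested were above background in at least 1 group, on each of its 2 arrays. One model covered all 14 arrays (7 residual degrees of freedom), with Benjamini-Hochberg adjustment over all tested probes. Z00055057-1 lacks 1 day 4 array, where its spot was flagged as an outlier. The code was tested on simulated data.

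The probes and lists were chosen with earlier results of these data known. Named probes are the 8 highest ranks, those at the rule's edge, up to 3 of the largest rises and falls per tested comparison with arrays that did not overlap, overlapping probes and the one with a reference match. Z00004978-1, Z00059689-1, Z00030878-1, Z00059593-1, Z00033273-1 and Z00077431-1 are also described for features seen in the values or sequences. Standard and passage 10 arrays of the same number share a slide, and their deviations from group means correlated at 0.254. In the other comparisons the number is shared only by name. The alternatives were other background corrections, scalings, filters, sample sets and blocks, and leaving out each array.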

Additional observations from a re-analysis of the deposited data

Results flagged for a closer look

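Of the 100 probes, 5 changed in opposite directions in day 4 and day 7 colonies against standard cells, each change passing. For these 5, day 7 and day 4 colonies also differed directly (limma, adjusted p below 0.05). The share of all tested probes with such opposite calls is not given here, so 5 of the 100 cannot be called many or few. Z00023872-1 rose at day 4 and fell at day 7, with a direct log2 difference of day 7 over day 4 of -1.25. Z00062015-1 had the same pattern and a direct difference of -0.79. Z00054591-1 fell at day 4 and rose at day 7, with a direct difference of 1.44. Z00034296-1 did likewise, with a direct difference of 1.41. Z00012783-1 likewise fell and then rose, with the smallest direct difference, 0.39, and both of its changes against standard cells lost their call when any 1 array was left out. Both comparisons with standard cells use the same standard arrays, and line, slide and day differ between the colony groups. In groups of 2 no single array could be tested as standing apart.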

How the results depend on the processing

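Among 124 recomputed counts of risen or fallen probes, 98 stayed within 1.5 times the main count and 26 did not. Among calls of single named probes, 1006 stayed, 72 were lost with the same direction and 1 was lost with the sign changed: Z00028650-1 in day 7 colonies, at -0.34 with the Cy3 channel alone. The cause was not tested. Shares of all tested probes on the same scale are given in brackets. With median centring 0 probes rose at day 4 (11.1%), and 2 rose and 0 fell at passage 10 (0.058% and 0.0612%). On that scale 10 were lower at day 7 than at day 4 (8.12%). With the scanner's log ratio 2 rose at day 7 (27.4%), and 11 rose and 0 fell at passage 10 (1.28% and 1.72%). The authors' table holds 58 of the probes, and 47 of these fell at day 4 (27.8% of all probes tested there). Of the same 58, 2 rose and 43 fell at day 7 (29.6% and 28.4%). At passage 10, 7 rose and 0 fell (2.11% and 2.57%), and 9 were lower at day 7 than at day 4 (27.1%). With Cy3 alone 1 rose at day 7 (24.6%). Among the 52 probes above background on all 14 arrays, 43 fell at day 4 (30.3% of all such probes) and 42 fell at day 7 (31.2%). Of these 52, 16 were higher at day 7 than at day 4 (33.7% of all such probes). When only the groups compared entered the fit, 2 rose at day 7. Leaving out 1 array at a time gave 2 to 3 rises and 64 to 68 falls at day 4, 2 to 4 rises and 65 to 72 falls at day 7, and 8 to 15 rises and 0 falls at passage 10. Between the colony groups it gave 22 to 26 higher and 13 to 19 lower. With the replicate number as a block, 3 rose and 75 fell at day 4, 4 rose and 72 fell at day 7, 20 rose and 1 fell at passage 10, and 27 were higher and 17 lower at day 7 than at day 4. With scan day as a block, added after the data were seen, 71 fell at day 4 and 20 rose at passage 10. Shares of all tested probes in the leave-out, block and compared-groups fits are not given here. Signal over background limits these values, since 38 of the 100 probes were above background on neither day 4 array.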
